A study of Mus musculus with 6 samples.

Results

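The DNA replication genes were the 34 genes, among 55416 in the deposited expression table, that the table assigns to the DNA replication pathway of KEGG (mmu03030). They code for the machinery that opens the double helix, copies it and joins the new strands. The rule used the pathway column and no measured value, but the pathway was picked for description with earlier results of these data known. Their expression was measured by bulk RNA sequencing in satellite cells (SCs), the stem cells of skeletal muscle, from wild type (WT) mice and from lactoferrin knockout (*Ltf*-KO) mice. There were 3 libraries for each genotype. SCs were sorted from enzymatically digested muscle as Sca1-, CD11b-, CD34+ and α7-integrin+ cells and grown on Matrigel in a serum-rich medium with basic fibroblast growth factor until day 4, with no other treatment. The *Ltf*-KO mice carried a CRISPR-Cas9 deletion of several *Ltf* exons, made in C57/BL6N zygotes and therefore present in every tissue, so that the deletion was not limited to SCs. The WT libraries are labelled wild type, with the same culture and day, and by the study's methods its mice were young adults unless stated otherwise. The labels number the libraries of each genotype but do not state that they came from separate mice, so p-values measure the spread between these libraries, which may be technical.

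Replication starts where a ring of MCM proteins has been loaded on DNA in G1 phase and is switched on as the helicase of S phase. Polymerase alpha with its primase lays down short primers, polymerases epsilon and delta extend them on the leading and the lagging strand, and the sliding clamp PCNA, which is loaded by replication factor C (RFC), keeps the polymerases on DNA. Replication protein A (RPA) covers the exposed single strand, and FEN1, DNA2, RNase H enzymes and ligase I remove the primers and seal the Okazaki fragments. In muscle, quiescent SCs replicate little DNA, whereas SCs activated in culture enter the cell cycle as myoblasts and use this machinery.

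In the *Ltf*-KO libraries the replication genes sat slightly lower than in the WT libraries, and no gene passed the adjusted threshold. Summed over the 34 genes, the level was 2227.8, 2174.4 and 2159.7 TPM across the WT libraries, against 2090.8, 2141.6 and 2099.5 TPM across *Ltf*-KO, where TPM is the share of transcripts given by a gene after correction for its length, scaled to a fixed total per library. All 3 *Ltf*-KO sums were below all 3 WT sums. The mean was 2187.3 ± 35.8 TPM in WT SCs and 2110.6 ± 27.1 TPM in those of *Ltf*-KO (SD, n = 3 each), a difference of -3.5%. Without *Pcna*, the most abundant of these transcripts, the difference was -3.35%, and the sums of the genotypes were still apart.

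*Ltf*-KO was compared with WT by limma on log2(TPM + 1) over all 12956 genes whose mean reached 1 TPM, and all 34 replication genes were among them. At an adjusted p under 0.05 there were 0 replication genes, and 0.0% of all genes tested passed. At an unadjusted p under 0.05, 3 replication genes (8.82%) were lower in *Ltf*-KO libraries, *Rnaseh2a*, *Pold2* and *Lig1*, where the share among all genes tested was 1.78%. In the other direction there were 0 replication genes and 2.01% of all genes tested. None of the 3 remained under 0.05 without *Ltf*-KO replicate 1, where *Pold1* was, with higher values in *Ltf*-KO libraries, and *Rnaseh2a* alone remained without WT replicate 1. A second reading asked whether the 3 libraries of one genotype were all below the 3 of the other. This held for 9 replication genes (26.5%), all lower in *Ltf*-KO libraries, where 3.73% of all genes tested lay apart in that direction. All 34 genes were measured in the same libraries, so the 9 are not 9 independent results. Of all genes tested, 4.73% lay apart in the opposite direction, and 0 replication genes did, although with a library left out up to 3 did, those 3 without *Ltf*-KO replicate 3, where the share of all genes tested was 11.7%. The fitted log2 difference was below 0 for 25 replication genes (73.5%), against 44.3% of all genes tested. Its median was -0.04 over the replication genes and 0.01 over all genes tested. The fold differences were thus small, between -0.25 and 0.12 on the log2 scale, and every replication gene had an adjusted p of 0.999 by limma.

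**Figure D1:**
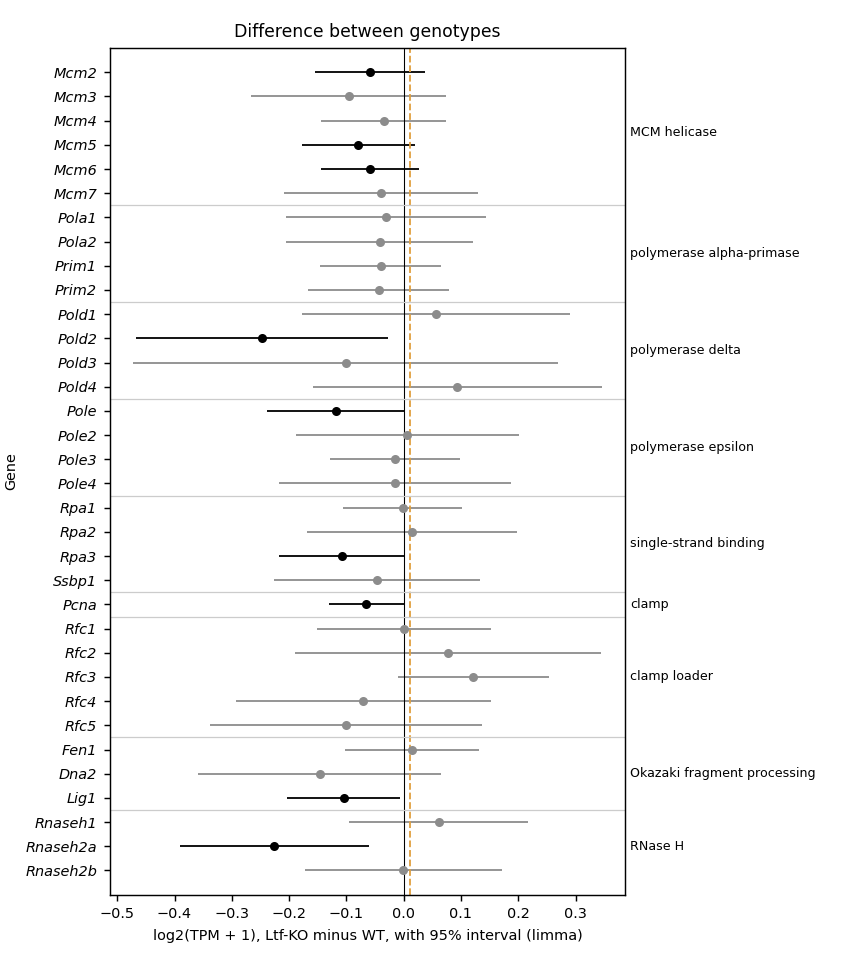
Fitted log2 difference between *Ltf*-KO and WT libraries (limma, log2(TPM + 1), x axis) for the 34 replication genes (y axis, grouped by role), with bars for the 95% interval, black for the 9 genes whose libraries did not overlap between genotypes and grey for the others. The solid line is 0 and the dashed line is the median of all genes tested (0.01), 25 of the 34 points lie left of 0, and the points run from -0.25 for *Pold2* to 0.12 for *Rfc3*.

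In the plot of fitted differences most intervals span 0. The intervals of *Pold2*, *Lig1* and *Rnaseh2a* lay wholly below 0, and none lay wholly above.

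The 6 libraries summed to between 993650 and 994356 TPM, and 12828 to 12951 genes reached 1 TPM in each. TPM keeps no read depth, so the precision of a value was judged from the spread between libraries. *Ltf* itself had 0.12, 0.02 and 0.02 TPM across the WT libraries, against 0.02, 0.03 and 0 TPM across *Ltf*-KO, near the floor in both, so it does not tell the genotypes apart. All 9 markers of SCs and myoblasts were measured above the filter, among them the muscle lineage factors *Pax7* at 36.6 to 43.3 TPM and *Myod1* at 747.6 to 815.7 TPM over the 6 libraries. Of the 6 markers of macrophages and leukocytes, *Ptprc*, *Adgre1*, *Csf1r* and *Itgam* were below 1 TPM in every library, *Cd68* was at 3.12 to 3.98 TPM, and *Lyz2* was at 7.22, 2.31 and 0.38 TPM in WT replicates 1 to 3 and at 0.38 to 1.11 TPM in *Ltf*-KO.

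RefSeq promoter windows on GRCm38.p6, each reaching from 250 bases before to 50 bases after an annotated start site, were at hand for 28 of the 34 genes, with 34 windows in all. An E2F-type motif, TTTNNCGC on either strand, was searched because E2F factors are known to act on genes of S phase, and CCAAT on either strand because NF-Y binds it in many promoters of the cell cycle. The E2F-type motif was found in 14 of the 34 windows (41.2%), against 5.17% of the 32851 windows of all genes and 8.43% of the 12320 windows of genes tested. CCAAT was found in 17 of the 34 windows, against 37.4% of all windows and 37.8% of those of genes tested. Both motifs occurred in 7 windows (20.6%), against 2.06% of all windows and 3.55% of those of genes tested. The 2 windows of *Pole4* overlap, so their matches are the same bases. A match is a description of the letters and not a bound site.

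The windows printed here belong to 5 genes whose libraries did not overlap between genotypes, so that promoters with and without the E2F-type motif can be compared. Capitals mark the bases of the E2F-type and CCAAT motifs, and all windows read 5′ to 3′ along the gene. *Mcm5* (chr8:75109259-75109558, plus strand) holds a pair of overlapping E2F-type matches on opposite strands and 3 CCAAT boxes. *Mcm6* (chr1:128359656-128359955, minus strand) holds such a pair, a further E2F-type match and 2 CCAAT boxes. *Rnaseh2a* (chr8:84966027-84966326, minus strand) holds a single E2F-type match and a CCAAT box. *Lig1* (chr7:13278576-13278875, plus strand, 1 of its 3 windows) holds a single E2F-type match without a CCAAT box. *Pcna* (chr2:132253131-132253430, minus strand) holds a CCAAT box without an E2F-type match. On the opposite strand a CCAAT box reads ATTGG.
Mcm5: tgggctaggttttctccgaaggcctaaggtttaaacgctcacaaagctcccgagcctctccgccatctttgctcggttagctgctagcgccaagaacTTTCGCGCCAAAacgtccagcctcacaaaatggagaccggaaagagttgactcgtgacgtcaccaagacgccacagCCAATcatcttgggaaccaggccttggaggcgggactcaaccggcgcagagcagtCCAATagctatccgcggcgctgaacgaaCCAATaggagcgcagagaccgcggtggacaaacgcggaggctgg
Mcm6: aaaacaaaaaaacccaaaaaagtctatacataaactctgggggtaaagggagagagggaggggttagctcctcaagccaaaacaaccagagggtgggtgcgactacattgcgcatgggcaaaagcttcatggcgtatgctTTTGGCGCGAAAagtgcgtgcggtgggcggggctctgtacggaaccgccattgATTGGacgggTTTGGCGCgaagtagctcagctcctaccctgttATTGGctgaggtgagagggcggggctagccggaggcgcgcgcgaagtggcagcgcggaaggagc
Rnaseh2a: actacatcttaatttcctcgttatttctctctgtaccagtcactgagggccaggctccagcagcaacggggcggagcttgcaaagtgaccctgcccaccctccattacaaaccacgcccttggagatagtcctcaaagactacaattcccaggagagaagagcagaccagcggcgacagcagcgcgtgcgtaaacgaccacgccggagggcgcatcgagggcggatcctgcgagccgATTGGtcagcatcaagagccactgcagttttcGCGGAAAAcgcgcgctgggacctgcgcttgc
Lig1: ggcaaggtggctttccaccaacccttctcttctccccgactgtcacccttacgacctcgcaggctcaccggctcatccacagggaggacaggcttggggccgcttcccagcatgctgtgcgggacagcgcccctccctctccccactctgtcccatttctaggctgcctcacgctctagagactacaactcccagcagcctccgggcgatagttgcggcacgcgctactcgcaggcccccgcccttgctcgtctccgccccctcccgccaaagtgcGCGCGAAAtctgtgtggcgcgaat
Pcna: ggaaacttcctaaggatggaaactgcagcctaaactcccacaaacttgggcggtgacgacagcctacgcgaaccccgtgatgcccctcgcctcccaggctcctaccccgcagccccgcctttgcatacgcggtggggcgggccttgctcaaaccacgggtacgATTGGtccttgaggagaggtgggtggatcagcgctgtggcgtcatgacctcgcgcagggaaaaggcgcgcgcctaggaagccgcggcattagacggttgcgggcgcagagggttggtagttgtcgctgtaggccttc

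In *Mcm5* the overlapping pair began 153 and 149 bases before the start site, and in *Mcm6* it began 110 and 106 bases before. The single matches of *Rnaseh2a* and *Lig1* began at bases 20 and 27 after the start. The differences between genotypes were also read by motif. Of the 13 genes with a match, 4 had libraries that did not overlap and the median log2 difference was -0.058, and of the 15 genes with a window but no match, 4 had libraries that did not overlap and the median was -0.042. Of the 16 genes with CCAAT, 7 had libraries that did not overlap, against 1 of the 12 without. Of all genes tested, whatever their promoter, 3.73% lay apart and lower in *Ltf*-KO libraries. The median level was 68.2 TPM for the genes with CCAAT and 34.9 TPM for those without. The median log2 differences of these groups were -0.049 and -0.044, and no test was made of either split.

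**Figure D2:**
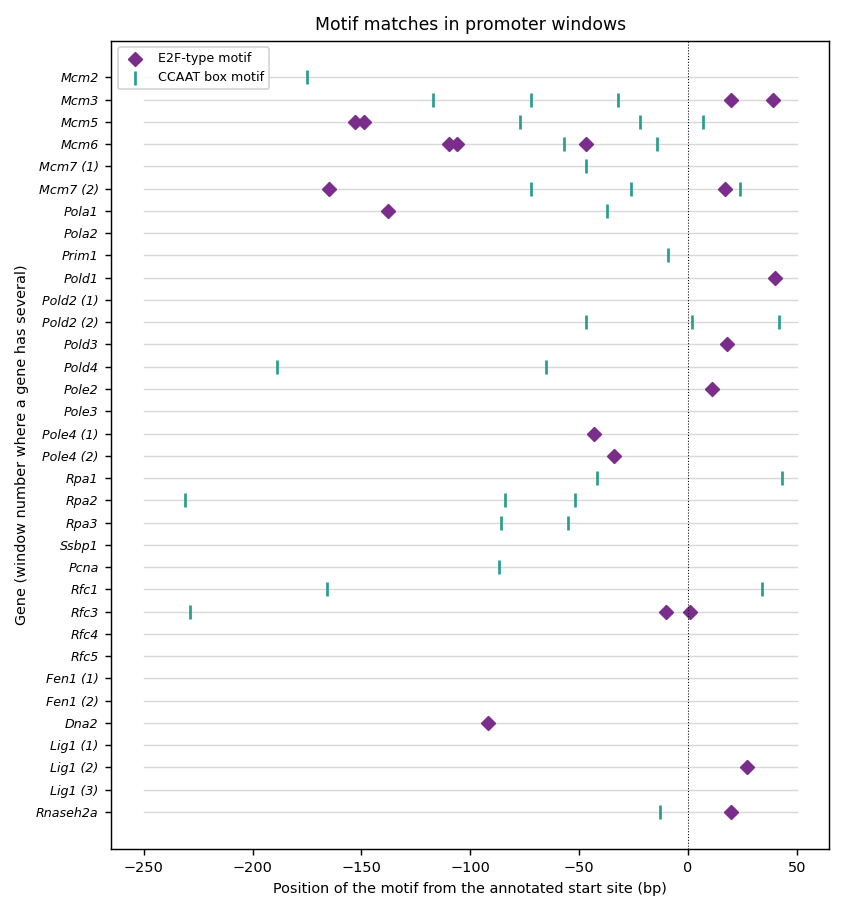
Position of each E2F-type match (diamond) and CCAAT match (bar) in base pairs from the annotated start site (x axis, dotted line at the start) in the 34 promoter windows of 28 replication genes (y axis). E2F-type matches fall in 14 windows and CCAAT in 17, and the pairs of *Mcm5* and *Mcm6* lie before the start whereas the matches of *Rnaseh2a*, *Lig1*, *Pold1*, *Pold3* and *Pole2* lie after it.

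The plot of motif positions shows windows with neither motif as empty lines, as for *Pola2*, *Ssbp1*, *Rfc4* and *Rfc5*.

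All 34 genes were expressed in both genotypes. Mean levels over the 6 libraries ran from 9.61 TPM for *Dna2* to 296.9 TPM for *Pcna*, with a median of 45.83 TPM, against 16.04 TPM for all genes tested. The median of all genes tested was exceeded by 31 of the 34 genes. A mean of 100 TPM or more was reached by 6 genes, *Pcna*, *Rpa1*, *Mcm7*, *Mcm3*, *Mcm6* and *Pold2*, and 473 genes of the table had a higher mean than *Pcna*. Under 20 TPM lay *Rnaseh1*, *Pola1*, *Pole2* and *Dna2*. The median coefficient of variation of the replication genes was 5.52% in WT and 3.76% in *Ltf*-KO libraries, against 5.15% and 5.41% for all genes whose mean reached 10 TPM.

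**Figure D3:**
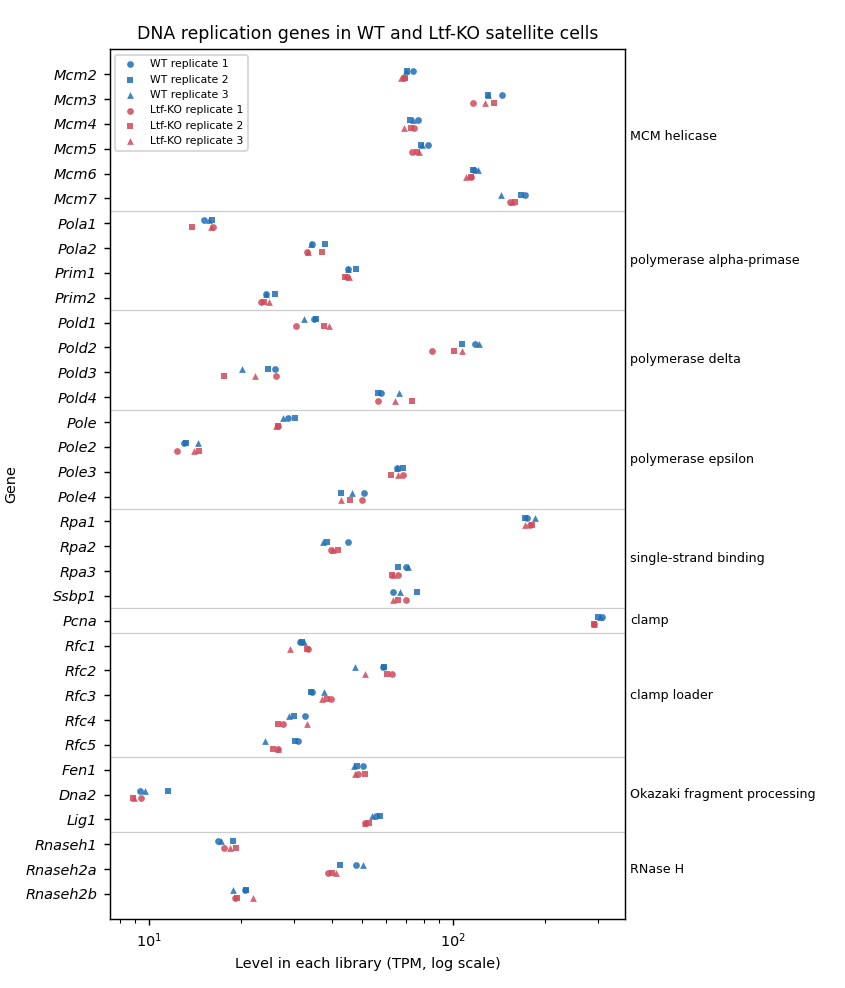
Level of each of the 34 replication genes (y axis, grouped by role) in each library (x axis, TPM on a log scale), with blue for WT, red for *Ltf*-KO and the symbol for the replicate number. Levels run from about 9 TPM for *Dna2* to about 300 TPM for *Pcna*, and the distance between genes is far larger than that between genotypes.

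The plot of levels shows that genes of one complex did not share one level. The helicase subunits, the large RPA subunit and the clamp lay at the upper end, and the catalytic polymerase subunits lay well below them.

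The 6 MCM genes code for the subunits of the replicative helicase. All 6 had a log2 difference below 0, from -0.10 for *Mcm3* to -0.03 for *Mcm4*, with a median of -0.06. In 3 of them, *Mcm2*, *Mcm5* and *Mcm6*, the libraries did not overlap. Among all genes tested, 44.3% had a log2 difference below 0 and 3.73% lay apart and lower in *Ltf*-KO libraries. In WT replicates 1 to 3 *Mcm5* reached 82.3, 78.0 and 78.8 TPM, compared with 73.2, 76.1 and 76.8 TPM for *Ltf*-KO. Every *Ltf*-KO library lay below the lowest WT library, by a margin of about 1 TPM at the closest. The log2 difference of *Mcm5* was -0.08 (SE 0.0406), with an unadjusted p of 0.0961 and an adjusted p of 0.999 by limma, the lowest p in the complex. *Mcm6* measured 116.7, 115.7 and 120.1 TPM in WT replicates 1 to 3, against 114.0, 114.5 and 109.9 TPM in *Ltf*-KO. In WT replicates 1 to 3 *Mcm2* reached 73.9, 70.2 and 70.1 TPM, compared with 68.9, 69.4 and 67.3 TPM for *Ltf*-KO. In both genes the genotypes were apart by less than 2 TPM, and the *Ltf*-KO mean was 0.96 times the WT mean. *Mcm3*, *Mcm4* and *Mcm7* overlapped between genotypes. *Mcm7* showed the widest WT spread of the complex, at 172.4, 167.2 and 143.8 TPM, and its *Ltf*-KO libraries, at 153.3, 160.0 and 155.6 TPM, lay within that range. *Mcm3* ranged from 116.0 to 144.7 TPM and *Mcm4* from 69.0 to 76.2 TPM over the 6 libraries.

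Per transcript length, *Mcm7* was the most abundant subunit and *Mcm2* the least. The order *Mcm7*, *Mcm3*, *Mcm6*, *Mcm5*, *Mcm4*, *Mcm2* was the same in 5 of 6 libraries. *Mcm7* stood at 2.26 ± 0.178 times *Mcm2* (SD, n = 3) in WT and 2.28 ± 0.0489 times (SD, n = 3) in *Ltf*-KO SCs. *Mcm6* stood at 1.65 times *Mcm2* in both genotypes. The proportions of the subunit transcripts, whose proteins form a ring with one copy of each, therefore differed between subunits, and for the 5 ratios to *Mcm2* the genotypes overlapped.

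Polymerase alpha-primase starts every new strand. Its 4 genes all had a log2 difference below 0, within -0.04 to -0.03, as had 44.3% of all genes tested. In all 4 the libraries of the genotypes overlapped. *Prim1*, the catalytic primase subunit, had the lowest p of the complex. It measured 44.97, 47.95 and 44.90 TPM in WT replicates 1 to 3, against 44.82, 43.93 and 45.21 TPM in *Ltf*-KO. The log2 difference of -0.04 (SE 0.0442) had an unadjusted p of 0.403 and an adjusted p of 0.999 by limma. *Prim1* was the most abundant transcript of the complex and *Pola1*, the catalytic polymerase subunit, the least, at 13.8 to 16.2 TPM. *Pola2*, the regulatory polymerase subunit, ranged from 33.0 to 38.0 TPM over the 6 libraries, and *Prim2*, the large primase subunit, from 23.3 to 25.8 TPM. The order *Prim1*, *Pola2*, *Prim2*, *Pola1* was found in 6 of 6 libraries.

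Polymerase delta copies the lagging strand, and its genes showed the largest spread of differences. *Pold2*, an accessory subunit that joins the catalytic subunit to the others, measured 117.4, 107.1 and 121.0 TPM in WT replicates 1 to 3, against 84.8, 100.3 and 106.4 TPM in *Ltf*-KO. The genotypes did not overlap, although the highest *Ltf*-KO library came within 1 TPM of the lowest WT library. Means were 115.1 ± 7.23 TPM in WT SCs and 97.2 ± 11.1 TPM in those of *Ltf*-KO (SD, n = 3 each). The log2 difference was -0.25 (SE 0.0915, 95% interval -0.467 to -0.028), with an unadjusted p of 0.0327 and an adjusted p of 0.999 by limma. *Ltf*-KO replicate 1 held the lowest value, and without it the log2 difference of *Pold2* was -0.15, with an unadjusted p of 0.0654 by limma. Leaving out WT replicate 1 or WT replicate 3 also took the unadjusted p above 0.05, to 0.0845 and 0.0978.

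*Pold1*, the catalytic subunit of polymerase delta, measured 34.8, 35.3 and 32.2 TPM in WT replicates 1 to 3, against 30.5, 37.7 and 38.9 TPM in *Ltf*-KO, so its *Ltf*-KO values lay on both sides of the WT values. *Pold3* and *Pold4*, the remaining accessory subunits, overlapped as well, at log2 differences of -0.10 and 0.09. Over the 6 libraries *Pold3* ranged from 17.6 to 26.2 TPM and *Pold4* from 56.4 to 73.1 TPM. The ratio of *Pold2* to *Pold1* was 3.37, 3.03 and 3.76 across the WT libraries, against 2.78, 2.66 and 2.73 across *Ltf*-KO. The genotypes did not overlap in this ratio, with means of 3.39 ± 0.363 and 2.73 ± 0.0614 (SD, n = 3 each). Despite this, *Pold2*, *Pold4*, *Pold1*, *Pold3* was the order of levels in 6 of 6 libraries.

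Polymerase epsilon copies the leading strand. *Pole*, its catalytic subunit, measured 28.6, 30.1 and 27.4 TPM in WT replicates 1 to 3, against 26.4, 26.5 and 26.1 TPM in *Ltf*-KO. The *Ltf*-KO libraries were close to each other and all below WT. For *Pole* the log2 difference was -0.12 (SE 0.05), with an unadjusted p of 0.0518 and an adjusted p of 0.999 by limma. The accessory subunits *Pole2*, *Pole3* and *Pole4* overlapped between genotypes, with log2 differences between -0.02 and 0.01. *Pole2* lay between 12.3 and 14.5 TPM. *Pole3* and *Pole4* are small histone-fold proteins that also serve in other complexes, and their transcripts, at 62.3 to 68.2 and 42.6 to 50.7 TPM, were above those of *Pole* in every library.

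The single-strand binding proteins comprise the 3 RPA subunits and *Ssbp1*, which works in mitochondria. *Rpa3*, the smallest RPA subunit, measured 69.9, 65.6 and 71.1 TPM in WT replicates 1 to 3, against 65.5, 62.7 and 63.4 TPM in *Ltf*-KO. The genotypes were apart by less than 0.1 TPM at their closest. For *Rpa3* this gave a log2 difference of -0.11 (SE 0.0455), with an unadjusted p of 0.0531 and an adjusted p of 0.999 by limma. *Rpa1* had means of 177.8 ± 7.50 TPM in WT and 177.5 ± 5.15 TPM in *Ltf*-KO SCs (SD, n = 3 each), with a 95% interval for its log2 difference of -0.106 to 0.102. *Rpa2*, at 37.3 to 45.1 TPM, and *Ssbp1*, at 63.2 to 75.7 TPM, overlapped between genotypes too. Although the proteins of RPA form a complex with one copy of each subunit, the transcript of *Rpa1* stood at 4.45 ± 0.56 times that of *Rpa2* in WT and 4.37 ± 0.127 times in *Ltf*-KO libraries (SD, n = 3 each).

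*Pcna* codes for the sliding clamp, which tethers polymerases and many repair enzymes to DNA. In WT replicates 1 to 3 the *Pcna* level was 308.03, 299.99 and 302.93 TPM, compared with 290.64, 290.66 and 289.11 TPM for *Ltf*-KO. The genotypes were apart, and the *Ltf*-KO libraries lay within 2 TPM of each other. Means were 303.7 ± 4.07 TPM in WT SCs and 290.1 ± 0.889 TPM in those of *Ltf*-KO (SD, n = 3 each). *Pcna* had a log2 difference of -0.07 (SE 0.0274), with an unadjusted p of 0.0507 and an adjusted p of 0.999 by limma. The pseudogenes *Pcna-ps1* and *Pcna-ps2*, whose sequence could share reads with *Pcna*, were listed at 0 and at no more than 0.5 TPM.

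**Figure D4:**
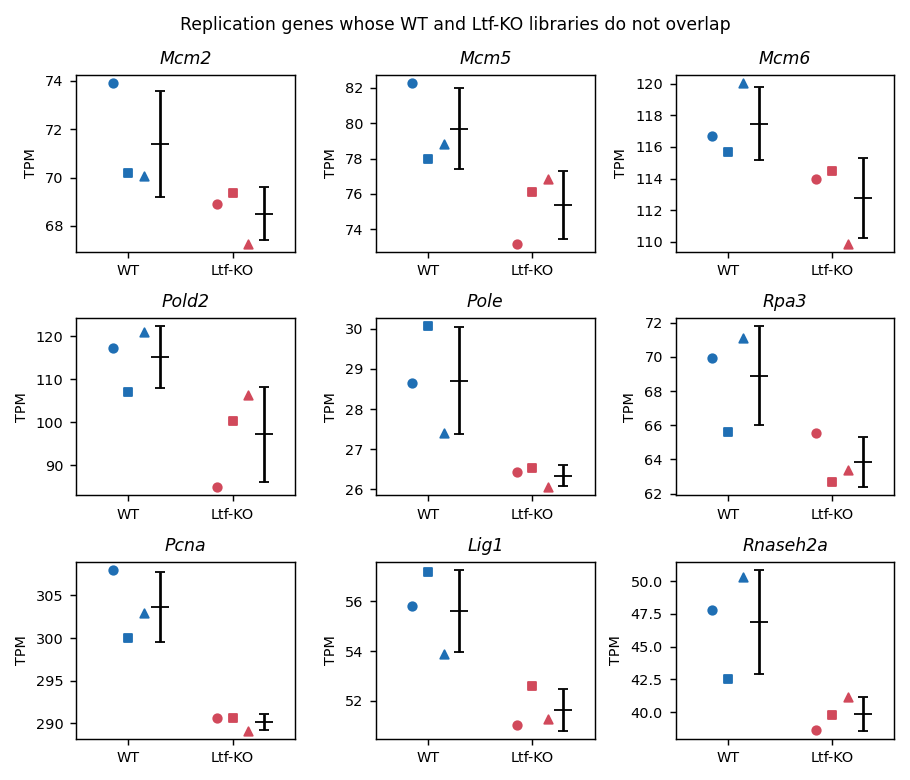
TPM of the 9 replication genes whose WT (blue) and *Ltf*-KO (red) libraries did not overlap, 1 panel a gene, with circles, squares and triangles for replicates 1, 2 and 3 and black bars for the mean ± SD (n = 3). The y axes do not start at 0, and in every panel the 3 *Ltf*-KO points lie below the 3 WT points, with *Pcna* at 289.1 to 290.7 TPM in *Ltf*-KO and 299.99 to 308.03 TPM in WT libraries.

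The plot of these 9 genes shows gaps of different width. In *Pcna* and *Pole* the genotypes were separated by more than the range of the *Ltf*-KO libraries, whereas in *Pold2* and *Rpa3* the nearest libraries of the genotypes almost met.

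RFC opens PCNA and loads it on primed DNA. Its 5 genes had log2 differences on both sides of 0, from -0.10 for *Rfc5* to 0.12 for *Rfc3*, with a median of 0.001, and in all 5 the libraries overlapped. *Rfc3* measured 34.2, 34 and 37.4 TPM in WT replicates 1 to 3, against 39.6, 38.4 and 37.1 TPM in *Ltf*-KO. WT replicate 3 lay above *Ltf*-KO replicate 3, and each of the other *Ltf*-KO values was above the other WT values. The log2 difference of *Rfc3* was 0.12 (SE 0.0551), the highest of the 34 genes, with an unadjusted p of 0.0655 and an adjusted p of 0.999 by limma. Without WT replicate 3 the unadjusted p of *Rfc3* was 0.0223 by limma. The ratio of *Rfc3* to *Rfc1*, the large subunit, was 1.11 ± 0.045 in WT and 1.21 ± 0.0603 in *Ltf*-KO libraries (SD, n = 3 each), and by the third decimal the genotypes did not overlap, at up to 1.16 in WT and from 1.16 in *Ltf*-KO libraries. Of the other subunits, *Rfc1* ranged from 29.1 to 33.3 TPM over the 6 libraries, *Rfc2* from 47.4 to 62.8 TPM, *Rfc4* from 26.6 to 33.1 TPM and *Rfc5* from 23.9 to 30.9 TPM.

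The genes of Okazaki fragment processing differed among themselves. *Lig1*, the ligase that seals the fragments, measured 55.8, 57.2 and 53.9 TPM in WT replicates 1 to 3, against 51.1, 52.6 and 51.3 TPM in *Ltf*-KO. All *Ltf*-KO libraries were below all WT libraries. *Lig1* had a log2 difference of -0.10 (SE 0.0409, 95% interval -0.203 to -0.007), with an unadjusted p of 0.0394 and an adjusted p of 0.999 by limma. That unadjusted p lay above 0.05 without WT replicate 1, WT replicate 2, *Ltf*-KO replicate 1 or *Ltf*-KO replicate 3, at 0.088, 0.123, 0.103 and 0.0911 in that order. *Fen1*, the flap endonuclease, measured 50.6, 48.1 and 47.1 TPM in WT replicates 1 to 3, against 48.6, 51.1 and 47.6 TPM in *Ltf*-KO, and the genotypes overlapped. The ratio of *Fen1* to *Lig1* was 0.906, 0.841 and 0.873 across the WT libraries, against 0.952, 0.971 and 0.927 across *Ltf*-KO, with no overlap. *Dna2*, a nuclease and helicase that trims long flaps, measured 9.32, 11.5 and 9.67 TPM in WT replicates 1 to 3, against 9.38, 8.85 and 8.93 TPM in *Ltf*-KO. *Ltf*-KO replicate 1 lay just above WT replicate 1, so *Dna2* was not among the 9 genes.

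RNase H enzymes cut RNA that is paired with DNA. *Rnaseh2a*, the catalytic subunit of RNase H2, measured 47.8, 42.5 and 50.3 TPM in WT replicates 1 to 3, against 38.6, 39.8 and 41.2 TPM in *Ltf*-KO. The *Ltf*-KO libraries were all below WT, and the WT libraries were the more spread. Means were 46.9 ± 3.98 TPM in WT SCs and 39.9 ± 1.28 TPM in those of *Ltf*-KO (SD, n = 3 each). The log2 difference was -0.23 (SE 0.0691, 95% interval -0.391 to -0.06), with an unadjusted p of 0.0153, the lowest of the 34 genes, and an adjusted p of 0.999 by limma. Without *Ltf*-KO replicate 1 the log2 difference of *Rnaseh2a* was -0.20, with an unadjusted p of 0.0512 by limma. *Rnaseh2b*, the partner subunit of *Rnaseh2a*, had means of 20.1 TPM in both genotypes. *Rnaseh2c*, the remaining subunit, carries no pathway in the table and is not among the 34 genes, and it was at 62.6 to 65.7 TPM in WT and 63.3 to 68.2 TPM in *Ltf*-KO libraries. *Rnaseh1*, a separate enzyme of a single subunit, was at 16.8 to 19.3 TPM over the 6 libraries, and its genotypes overlapped. The ratio of *Rnaseh2a* to *Rnaseh2b* was 2.32, 2.04 and 2.67 across the WT libraries, against 2.02, 2.06 and 1.88 across *Ltf*-KO, and the genotypes overlapped.

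Of the 24 ratios formed within a complex or between *Pcna*, *Fen1* and *Lig1*, 4 did not overlap between genotypes, 2 of them higher and 2 lower in *Ltf*-KO libraries. Beside *Pold2* to *Pold1*, *Rfc3* to *Rfc1* and *Fen1* to *Lig1*, this was *Pcna* to *Fen1*, at 6.26 ± 0.176 in WT and 5.92 ± 0.202 in *Ltf*-KO libraries (SD, n = 3 each). For *Pcna* to *Fen1* the genotypes almost met, at 6.09 in WT replicate 1 and 6.08 in *Ltf*-KO replicate 3. A ratio within a library does not depend on how the libraries were scaled to each other. The other 20 ratios overlapped between genotypes, and no share over other pairs of genes was computed to read the 4 against.

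By library, WT replicate 1 held the highest value of 9 of the 34 genes and *Ltf*-KO replicate 1 the lowest value of 10. The median log2 ratio of the 34 genes to the WT mean was 0.021, -0.009 and -0.032 across the WT libraries, against -0.065, -0.047 and -0.072 across *Ltf*-KO. The same median over all genes tested stayed between -0.01 and 0.011. Each *Ltf*-KO library was below each WT library in the median of the replication genes, and WT replicate 3 was nearer to *Ltf*-KO replicate 2 than to WT replicate 1.

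**Figure D5:**
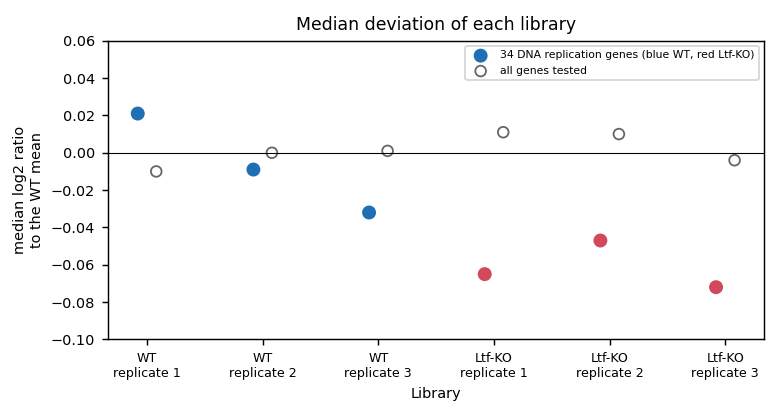
Median log2 ratio to the WT mean in each of the 6 libraries (x axis), for the 34 replication genes (filled, blue for WT and red for *Ltf*-KO) and for all genes tested (open circles). The filled points run from 0.021 in WT replicate 1 to -0.072 in *Ltf*-KO replicate 3, whereas the open points stay between -0.01 and 0.011.

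The plot of library medians shows the WT libraries more spread than the *Ltf*-KO libraries. Leaving out WT replicate 2 moved the median log2 difference of the 34 genes from -0.04 to -0.02. The 9 genes with no overlap were also apart after quantile normalization and after median-of-ratios scaling, the settings that can alter the order of the libraries.

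Many of the 34 genes serve in more than replication. In the table, 18 also carried nucleotide excision repair, 15 mismatch repair, 11 base excision repair and 8 homologous recombination, since polymerase delta, RFC, RPA and PCNA act there as well. The 7 that also carried the cell cycle pathway were the 6 MCM genes and *Pcna*. All 7 had a log2 difference below 0, with a median of -0.06, and 4 of them had libraries that did not overlap. Of all genes tested, 44.3% had a log2 difference below 0 and 3.73% lay apart and lower in *Ltf*-KO libraries. The cell cycle pathway was given to 123 genes in all, and no share was computed over the genes of these pathways outside the 34. Of the 18 genes shared with nucleotide excision repair, 11 had a log2 difference below 0, with a median of -0.015, and 5 had libraries that did not overlap. The 8 genes with no other pathway were those of polymerase alpha-primase, *Dna2* and the RNase H genes, of which 7 had a log2 difference below 0 and 1, *Rnaseh2a*, had libraries that did not overlap.

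The other genes needed around the fork were read from 6 lists with 73 genes, all of which passed the filter. Of these, 44 had a log2 difference below 0 and 29 above, with a median of -0.0133, where 44.3% of all genes tested were below 0. At an unadjusted p under 0.05 there was 1, where 3.78% of all genes tested were in both directions together. Libraries lay apart for 4 of the 73 genes (5.48%), 3 lower and 1 higher in *Ltf*-KO, where 3.73% and 4.73% of all genes tested did. Origin recognition and licensing genes, which place the MCM ring on DNA, had 6 of 12 below 0 and a median of -0.006. Origin firing and fork factors, which include CDC45 and the GINS proteins that complete the helicase, had 10 of 20 below 0 and a median of 0.002. Among genes of deoxynucleotide supply 8 of 10 were below 0, with a median of -0.029. *Rrm2*, the regulated subunit of ribonucleotide reductase, was at 754.0 to 788.8 TPM in WT and 755.0 to 780.5 TPM in *Ltf*-KO libraries. Chromatin assembly genes had 4 of 8 below 0 and a median of -0.003, and E2F and G1/S regulators had 10 of 15 below 0 and a median of -0.015.

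The gene with an unadjusted p under 0.05 was *Ccne2*, cyclin E2, which with CDK2 drives entry into S phase. In WT replicates 1 to 3 *Ccne2* reached 35.3, 37.1 and 35.5 TPM, compared with 33.5, 30.6 and 30.5 TPM for *Ltf*-KO. The genotypes did not overlap. *Ccne2* had a log2 difference of -0.18 (SE 0.0543), with an unadjusted p of 0.0127 and an adjusted p of 0.999 by limma. Also apart and lower were *Cdk2* and *Cdc25a*, the phosphatase that activates CDK2, and apart and higher was *Orc5*, a subunit of the origin recognition complex, all named after their values were seen. Of the 15 E2F and G1/S regulators, 3 lay apart and lower, and 5 had a log2 difference above 0. Among those 5 was *Ccne1*, cyclin E1, at 0.07, whose libraries overlapped between genotypes.

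In bulk samples, fewer cells in S phase and less of these transcripts in each cell cannot be told apart. The 8 proliferation markers were examined beside the replication genes. Their summed level was 1050 to 1171 TPM in WT and 1051 to 1147 TPM in *Ltf*-KO libraries, and the genotypes overlapped. *Mki67*, which marks cycling cells, was at 54.1 to 61.5 TPM in WT and 55.2 to 63.0 TPM in *Ltf*-KO libraries. Of the 8 markers, 6 had a log2 difference below 0, with a median of -0.022, and 0 were at an unadjusted p under 0.05.

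Markers of other cells and of differentiation were read beside these results. The 9 markers of SCs and myoblasts summed to 1993 to 2041 TPM in WT and 2024 to 2070 TPM in *Ltf*-KO libraries. All 10 genes of differentiating muscle, a state in which cells leave the cycle, had log2 differences above 0, with a median of 0.14 and 0 at an unadjusted p under 0.05. Their sum was 2654, 3410 and 2499 TPM across the WT libraries, against 2901, 2500 and 3973 TPM across *Ltf*-KO, so the spread within each genotype was wide. *Ltf*-KO replicate 3 held the highest sum and also the lowest median of the replication genes, at -0.072. The median was -0.047 in *Ltf*-KO replicate 2 and -0.065 in *Ltf*-KO replicate 1. The WT medians were 0.021, -0.009 and -0.032 in replicates 1 to 3, and WT replicate 3, with the lowest WT sum, had the lowest WT median. Of the 7 fibroblast markers, 6 passed the filter and all 6 had log2 differences above 0. The 7 summed to 104.6 to 109.8 TPM in WT and 104.3 to 137.7 TPM in *Ltf*-KO libraries. Most of that sum was *Col3a1*, at 88.0 to 96.6 TPM in WT and 89.8 to 117.7 TPM in *Ltf*-KO libraries. Each other fibroblast marker was below 10 TPM in every library, so the sum mainly follows *Col3a1*. The 6 leukocyte markers summed to 4.46 to 11.48 TPM in WT and 3.59 to 4.69 TPM in *Ltf*-KO libraries, the 5 endothelial markers to 5.68 to 14.22 and 5.68 to 13.31 TPM, the 6 markers of smooth muscle and pericytes to 42.65 to 45.04 and 42.61 to 51.04 TPM, and the 5 Schwann cell markers to 137.3 to 158.9 and 141.0 to 146.4 TPM. Most of the sum for smooth muscle and pericytes was *Cspg4*, at 30.8 to 41.1 TPM over the 6 libraries. Most of the Schwann cell sum was *Ncam1*, at 115.5 to 147.2 TPM. The part of differentiation or of other cells in the levels of the replication genes was not tested.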

How the data were processed

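The authors deposited TPM values with 2 decimals for 55416 genes in 6 libraries, 3 WT and 3 *Ltf*-KO, with KEGG pathways beside each gene. TPM divides reads by gene length and scales each library to the same total, so read depth is unknown, no counting error could be given, and a higher level of some genes lowers the others. The submitters' processing notes name GRCm39. The aligner and counting tool are not given in the sources used here.

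Libraries were assigned to genotypes by their labels. limma 3.58.1 in R 4.3.3 (lmFit, eBayes with a variance trend, no covariate) was fitted on log2(TPM + 1), two-sided, over the 12956 genes whose mean reached 1 TPM, with Benjamini-Hochberg adjustment over all of them and a threshold of 0.05. Differences are *Ltf*-KO minus WT on that scale, which understates those of genes with low TPM. The study selected genes by p alone and states no model. The fit was tested on simulated data, in genes whose mean reached 10 TPM and with differences much larger than those found here. That test does not bear on differences as small as those of the replication genes.

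The rule for the 34 genes reads the pathway column, but the pathway and the other lists were picked for description with earlier results of these data known. Statistics were given for genes at an unadjusted p under 0.05 and for the lowest p in each role, and other genes are described by level. There were 13 other settings: a pseudocount of 0.1, no filter, a filter at 10 TPM, the replicate number as a block, quantile normalization, median-of-ratios scaling, no variance trend, and 6 fits that left out a library each. Promoters were matched by symbol to RefSeq windows on GRCm38.p6, and 6 genes without a window (*Mcm4*, *Prim2*, *Pole*, *Rfc2*, *Rnaseh1* and *Rnaseh2b*) are described without one. Protein sequences were not used here.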

Additional observations from a re-analysis of the deposited data

How the results depend on the processing

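At an adjusted p under 0.05 by limma there were 0 replication genes in all 14 settings, and at an unadjusted p under 0.05 there were between 1 and 6. The fit reported above gave 3. There were 6 without the filter on low values, where 3.35% of all genes tested were. After quantile normalization there were 6 and 3.92%, after median-of-ratios scaling 6 and 3.88%, and without the variance trend 1 and 3.91%. Leaving out each library in turn gave 1 to 6, where 3.44 to 4.73% of all genes tested were. Without WT replicate 1 the 1 gene was *Rnaseh2a*. Without *Ltf*-KO replicate 1 it was *Pold1*, higher in *Ltf*-KO, and none of the 3 remained. The 6 without WT replicate 3 were *Lig1*, *Mcm7*, *Pole*, *Rfc5* and *Rnaseh2a*, lower, and *Rfc3*, higher, without *Pold2*. The cause of these shifts was not tested. With the replicate block, 2 replication genes (*Pold2* and *Rnaseh2a*) and 2.93% of all genes tested were at an unadjusted p under 0.05, against 3 and 3.78% without it, and *Lig1* had an unadjusted p of 0.0844. Deviations from the group means of libraries with equal numbers had correlations of -0.0413, -0.0582 and -0.0875 across genes, so the libraries share only a number and this is not read as a weaker effect. The median log2 difference of the replication genes was -0.0407, and -0.0574 to -0.0198 with each library left out, the latter without WT replicate 2. Genes with a log2 difference below 0 numbered 24 to 28 over all settings. The 9 genes without overlap were also apart under both other scalings, where *Dna2* joined them. The remaining settings cannot undo a separation, so they do not bear on it. With a library left out, 0 to 3 replication genes lay apart and higher in *Ltf*-KO, 1 or more in 5 of the 6 fits and 3 without *Ltf*-KO replicate 3, where 9.1 to 11.7% of all genes tested did. Those apart and lower numbered 9 to 12, against 7.22 to 8.56%. In the other lists, 1 gene had an unadjusted p under 0.05, and 1 to 4 with each library left out, 4 where WT replicate 3 was missing and 3 where *Ltf*-KO replicate 1 or 2 was. For the genes whose log2 difference is given above with an unadjusted p, no direction was reversed in any setting. Other replication genes did change direction, with 28 below 0 after quantile normalization against 25 in the reported fit. Over all genes tested, 0 passed the adjusted threshold in the reported fit and up to 7 with a library left out. TPM keeps no read depth, so counting error could not be told apart from other spread between libraries.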
